A study of Mus musculus with 34 samples.

Results

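The genes described here encode the core proteins of the embryonic basement membrane: the laminin chains Lama1, Lamb1 and Lamc1, the nidogens Nid1 and Nid2, the collagen IV chains Col4a1 and Col4a2, and perlecan (Hspg2). They were chosen by name, as the probe sets whose single gene symbol in the array annotation is one of these 8 genes. All 8 genes were measured, by 10 probe sets, out of 8251 genes and 12422 probe sets on the array. A gene with more than 1 probe set was read by its brightest one, and the second probe sets of Lamb1 and Lamc1 are given beside it.

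RNA was profiled on mouse expression arrays in 10 groups of cells, and 32 arrays were used. The inner cell mass (ICM, 3 arrays) was isolated from E3.5 blastocysts of mixed sex by immunosurgery, a procedure that lyses the outer trophectoderm with antibody and complement. ICM replicate 1 came from a cross of [C57Bl/6 x C3H F1] with CD1 F1 mice and replicates 2 and 3 from C57Bl/6 x C3H F1 embryos, whereas every other group was C57Bl/6, so strain and cell type cannot be told apart in comparisons with ICM. Embryonic germ cells (EGC, 3 arrays) were male, derived from E12.5 primordial germ cells and taken at passage 19. Embryonic stem cells (ESC, 2 arrays) were male and taken at passage 9-14, and both lines grew in LIF and serum. Primordial germ cells (PGC) were sorted as Oct4/GFP+ cells from females at E13.5 (3 arrays), from males at E13.5 (3 arrays) and from mixed embryos at E11.5 (4 arrays). The somatic groups were mouse embryonic fibroblasts (MEF, 6 arrays, from E13.5, passage 2, in serum), the Oct4/GFP- fraction of gonad plus mesonephros at E11.5 (SGM, 4 arrays), neural stem cells (NSC, 2 arrays, passage 1 neurospheres from the subventricular zone of 8-week mice, in EGF), and haematopoietic stem cells (HSC, 2 arrays, from 8-week male bone marrow, Side Population cells sorted as Lin- and CD34- with Sca-1+ and c-Kit+). The Oct4/GFP reporter marks cells by Oct4 regulatory activity, so the gate that defines PGC and SGM is a pluripotency and germline reporter rather than a matrix gene.

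As background, a basement membrane is a thin sheet of matrix that underlies epithelia. Laminin trimers of 1 alpha, 1 beta and 1 gamma chain bind cells through integrins and dystroglycan and polymerise on the cell surface, collagen IV forms a second network, and nidogens and perlecan link the networks. In the blastocyst, primitive endoderm arises within the inner cell mass and deposits the basement membrane that comes to lie between it and the epiblast. Its parietal derivative secretes large amounts of laminin and collagen IV into Reichert's membrane, and in the mouse the loss of the laminin gamma chain encoded by Lamc1 stops basement membrane assembly at implantation.

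The genes lie on 7 chromosomes of GRCm38.p6. Lama1 is at chr17:67697127-67822645, Lamb1 at chr12:31265146-31329644, Lamc1 at chr1:153218922-153332786 and Nid1 at chr13:13437602-13512275. Nid2 lies at chr14:19751257-19811787 and Hspg2 at chr4:137468751-137570630. Col4a1 (chr8:11198423-11312889) and Col4a2 (chr8:11312805-11449287) lie head to head. Their RefSeq starts, 11312826 for Col4a1 on the minus strand and 11312805 for Col4a2 on the plus strand, fall within 22 bases, so any upstream sequence of one lies in the other gene. Promoter windows of RefSeq, 250 bases before the start, were at hand for 5 of the 8 genes: Lamb1, Nid1, Col4a1, Col4a2 and Hspg2. The window of Nid1 is shown in part because this gene separated ICM and EGC from ESC. The 120 bases before its start (GRCm38.p6, chr13:13437482-13437601, plus strand) hold a CCAAT box, which reads ATTGG on this strand, and a GC box (GGGCGG), both in capitals.
Nid1: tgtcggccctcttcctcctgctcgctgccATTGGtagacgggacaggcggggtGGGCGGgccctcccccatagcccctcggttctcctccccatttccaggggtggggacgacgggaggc
Searched on both strands over the 250 upstream bases, the GC box GGGCGG was present in 4 of the 5 genes, all but Col4a1, and in 32.7% of all 32851 windows. CCAAT was present in 4 of 5, all but Hspg2, and in 33.8% of all windows. AGATAA, a form of the site that GATA factors bind, was in 0 of 5 and in 9.99% of all windows, and other forms were not searched. ACAAAG, a SOX motif, was in 0 of 5 and in 16.5%, and TATAAA in 0 of 5 and in 12.4%. The upstream bases were 62% to 74.4% G or C, lowest in Lamb1 and highest in Col4a1. A match describes letters only, and absence says nothing of a factor acting elsewhere.

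Values are log2 units of the deposited RMA table, so a difference of 1 is a 2-fold change. A difference is called where limma, fitted over all 12422 probe sets and 32 arrays, gave a two-sided Benjamini-Hochberg adjusted p below 0.05. Separate animals or cultures behind replicates are not stated for every group, and p-values then measure the spread between these arrays. In bulk RNA, fewer cells of a type and less RNA per cell cannot be told apart. Marker lists of the somatic groups followed the labels: mean log2 values per array were 9.45 to 9.55 for the neural stem list in NSC, 8.25 to 8.26 for the haematopoietic stem list in HSC, 12.27 to 12.42 for the mesenchyme list in MEF, and 7.96 to 8.03 for the gonad and mesonephros list in SGM. The germ cell list averaged 6.90 to 8.10 in PGC and 5.40 to 5.57 in SGM, but also 7.16 to 7.19 in ICM and ESC, above the 6.90 to 6.99 of male PGC at E13.5. The list therefore did not single out germ cells, and the epiblast list averaged 9.19 to 10.50 in ICM, EGC, ESC and PGC, against 7.01 to 7.33 in the somatic groups. The NSC and HSC arrays stood apart in control probe sets, with the actin 3′ probe set at 5.38 to 5.69 on them and 10.15 to 13.07 on all other arrays, and the Gapdh opposite-strand probe set at 13.31 to 13.53 on them and 7.19 to 9.15 elsewhere. The comparison of pluripotent with somatic groups, the spans and the correlations are also given without them.

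The ICM arrays also differed among themselves. Several markers of trophectoderm, the outer layer that immunosurgery is meant to remove, were far brighter on replicates 1 and 2 than on replicate 3. Eomes, the example with the largest difference from ESC, read 10.61, 10.35 and 6.84 on ICM replicates 1, 2 and 3, against a mean of 5.67 in ESC. Krt18 read 11.26, 11.14 and 7.57 on the same arrays, and Gata3 8.36, 8.33 and 5.66. The 16 measured genes of the trophectoderm list averaged 8.21, 8.29 and 6.88, against 6.79 to 6.95 in ESC. On replicate 3, 14 of the 16 were lowest, beside 31.3% of all probe sets. Not every marker dropped: Hand1 read 8.28, 8.19 and 8.27, Tead4 8.83, 8.63 and 8.76, and Cdx2 was low throughout at 6.31, 6.37 and 5.83. The basement membrane genes ran the other way, with means over the 8 genes of 8.76, 8.92 and 9.35 and 5 of the 8 (62.5%) highest on replicate 3, where 36.4% of all probe sets were highest. Lama1, Lamb1, Nid1, Col4a1 and Col4a2 were highest on replicate 3, and Lamc1 and Hspg2 lowest. The part of trophectoderm in the ICM values was not tested.

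Some genes of the primitive endoderm list were higher in ICM than in ESC. Pdgfra, a receptor kinase of primitive endoderm, read 9.89, 9.66 and 10.67 on ICM replicates 1, 2 and 3, against a mean of 8.45 in ESC (difference 1.62 ± 0.28 SE, limma adjusted p 8.4e-05). Sox17, an endoderm transcription factor, read 7.82, 7.57 and 8.21, against 7.23 in ESC (0.64 ± 0.13, limma adjusted p 0.00081). Dab2, an endocytic adaptor of endoderm, read 11.34, 12.63 and 9.64, against 8.10 in ESC, and was lowest on replicate 3. Gata4, Gata6 and Sox7, regulators of primitive endoderm, were not called between ICM and ESC, at differences of -0.04, -0.31 and 0.02. Of 27 measured genes of the list, 8 were higher and 1 lower in ICM than in ESC, or 33.3% called against 27.3% of all probe sets, with a median difference of 0.10 against -0.05. On replicate 3, 15 of the 27 were highest, beside the 36.4% of all probe sets, and 9 were lowest, beside 31.3%.

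**Figure D1:**
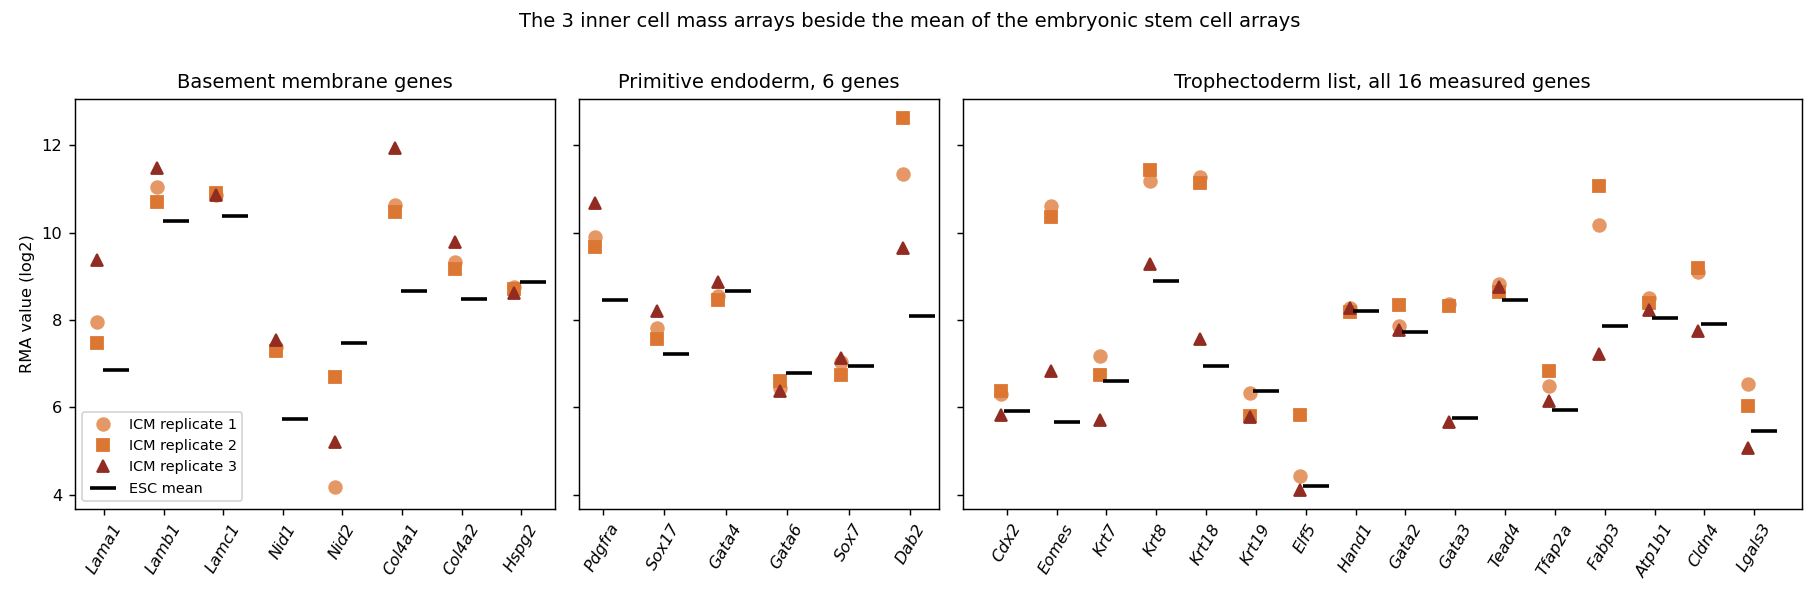
Log2 RMA values of the 8 basement membrane genes, primitive endoderm genes and trophectoderm genes (horizontal axis, genes) on the 3 ICM arrays, 1 symbol per array, beside the mean of the ESC arrays. Eomes lies above 10 on replicates 1 and 2 and at 6.84 on replicate 3, while Lama1 and Col4a1 reach 9.36 and 11.94 on replicate 3.

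Relative to ESC, 7 of the 8 basement membrane genes differed in ICM, and 27.3% of all probe sets did. All 3 laminin chains, Nid1 and both collagen IV chains were higher in ICM, while Nid2 was lower and Hspg2 was not called. The median difference of the 8 genes was 0.88, against -0.05 over all probe sets. With only ICM and ESC fitted, 3 of the 8 were called, all higher, beside 8% of all probe sets. The changes spanned 1.41-fold for Lamc1 to 5.12-fold for Col4a1 upward, and Nid2 was 4.36-fold lower. Between the same groups, 1 of 6 other laminin chains was called, Lamb3, which was 0.43 higher. Lama2, Lama3, Lama4, Lama5 and Lamb2 had differences of 0.27, -0.04, 0.14, 0.01 and 0.12 and were not called.

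Lama1, the alpha chain of the earliest embryonic laminin, was the one gene whose ICM level was apart from every other group by more than a 2-fold change. It read 7.96, 7.48 and 9.36 on the ICM arrays, against 6.35, 6.67 and 6.55 in EGC, 6.81 and 6.92 in ESC, 7.25, 6.64, 6.95 and 7.13 in SGM, and a lowest, median and highest of 5.47, 5.60 and 5.89 in MEF. Each ICM array was above every array of the other 9 groups. The difference was 1.40 ± 0.28 over ESC (2.64-fold, limma adjusted p 0.000485), 1.74 ± 0.25 over EGC (3.34-fold, adjusted p 2.31e-06) and 2.64 ± 0.22 over MEF (6.22-fold, adjusted p 2.21e-11). Over SGM, the next group, it was 1.27 ± 0.24 (2.42-fold, adjusted p 4.26e-05). In MEF Lama1 stood at percentile 19.33 to 24.51 of the probe sets on an array, so the size of the difference over MEF is uncertain. The SD was 0.98 over the ICM arrays and 0.08 over the ESC arrays, while the fit shares 1 spread over all groups. With only ICM and ESC fitted, the difference over ESC was not called (limma adjusted p 0.127). Replicate 3 carried a large share of these sizes: without it the difference was 0.86 over ESC (adjusted p 0.000547). Without it SGM remained the next group, at a difference of 0.73 (adjusted p 0.0022 for the one-sided limma test against all 9 groups).

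Lamb1, the beta chain, was also highest in ICM. It read 11.05, 10.69 and 11.48 there, against 10.26 ± 0.27 in EGC (SD, n = 3), 10.17 and 10.34 in ESC, and 10.24, 10.46 and 10.72 in MEF (lowest, median, highest). The ICM arrays were above all ESC arrays and overlapped those of MEF. The difference was 0.82 ± 0.20 over ESC (1.76-fold, limma adjusted p 0.00336) and 0.59 ± 0.16 over MEF (1.5-fold, adjusted p 0.00194). The call over ESC was lost without ESC replicate 1 (0.73, adjusted p 0.0542) and with only ICM and ESC fitted (adjusted p 0.0802). The second Lamb1 probe set followed the first with r = 0.95 over the 10 group means and 0.97 over the 8 without NSC and HSC. It read 7.83, 8.09 and 9.28 in ICM, and was 1.22 above ESC (adjusted p 0.00217) and 0.83 above MEF (adjusted p 0.00193), with no overlap of arrays in either comparison.

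Lamc1, the gamma chain that most laminins share, varied least of the laminin genes and had the tightest ICM arrays. It read 10.87, 10.90 and 10.86 in ICM, against 10.30 ± 0.11 in EGC (SD, n = 3), 10.27 and 10.49 in ESC, and 10.54, 10.62 and 10.82 in MEF (lowest, median, highest). The ICM arrays lay above those of all other groups, by a margin that was narrow next to MEF. The difference over ESC was 0.50 ± 0.12 (1.41-fold, limma adjusted p 0.00363), and that over MEF was 0.24 ± 0.10 (1.18-fold, adjusted p 0.0323). The call over ESC was lost without ESC replicate 1 (0.39, adjusted p 0.0951) and with only ICM and ESC fitted (adjusted p 0.0828). The call over MEF was lost without any single ICM array, MEF replicate 2 or MEF replicate 6 (adjusted p 0.0512 to 0.087), and the call over SGM (0.27, adjusted p 0.0251) without ICM replicate 2 or SGM replicate 2 (adjusted p 0.0666 and 0.0887). The second Lamc1 probe set had group means of 4.72 to 5.44. It stood at percentile 8.928 to 16.98 of the probe sets on the arrays, so its differences and correlations are uncertain. Its r with the first was -0.72 over the 10 group means and 0.24 over the 8 without NSC and HSC. It was not called between ICM and ESC, EGC, PGC at E11.5 or SGM. Over MEF it was 0.32 higher in ICM (limma adjusted p 0.0167) with overlapping arrays.

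Counted over all 9 other groups at once, Lama1 and Lamb1 were called above every group, 2 of the 8 genes, beside 1.44% of all probe sets. Unlike the other tests, this limma test is one-sided. For Lamb1 that call (adjusted p 0.0312) was lost without any one of 9 arrays (ESC 1 and 2, ICM 1 and 3, EGC 2, and MEF 1, 2, 3 and 6), with adjusted p 0.0502 to 0.589. Without ICM replicate 3 its margin over MEF was 0.38. Lama1 kept the call without each array in turn.

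**Figure D2:**
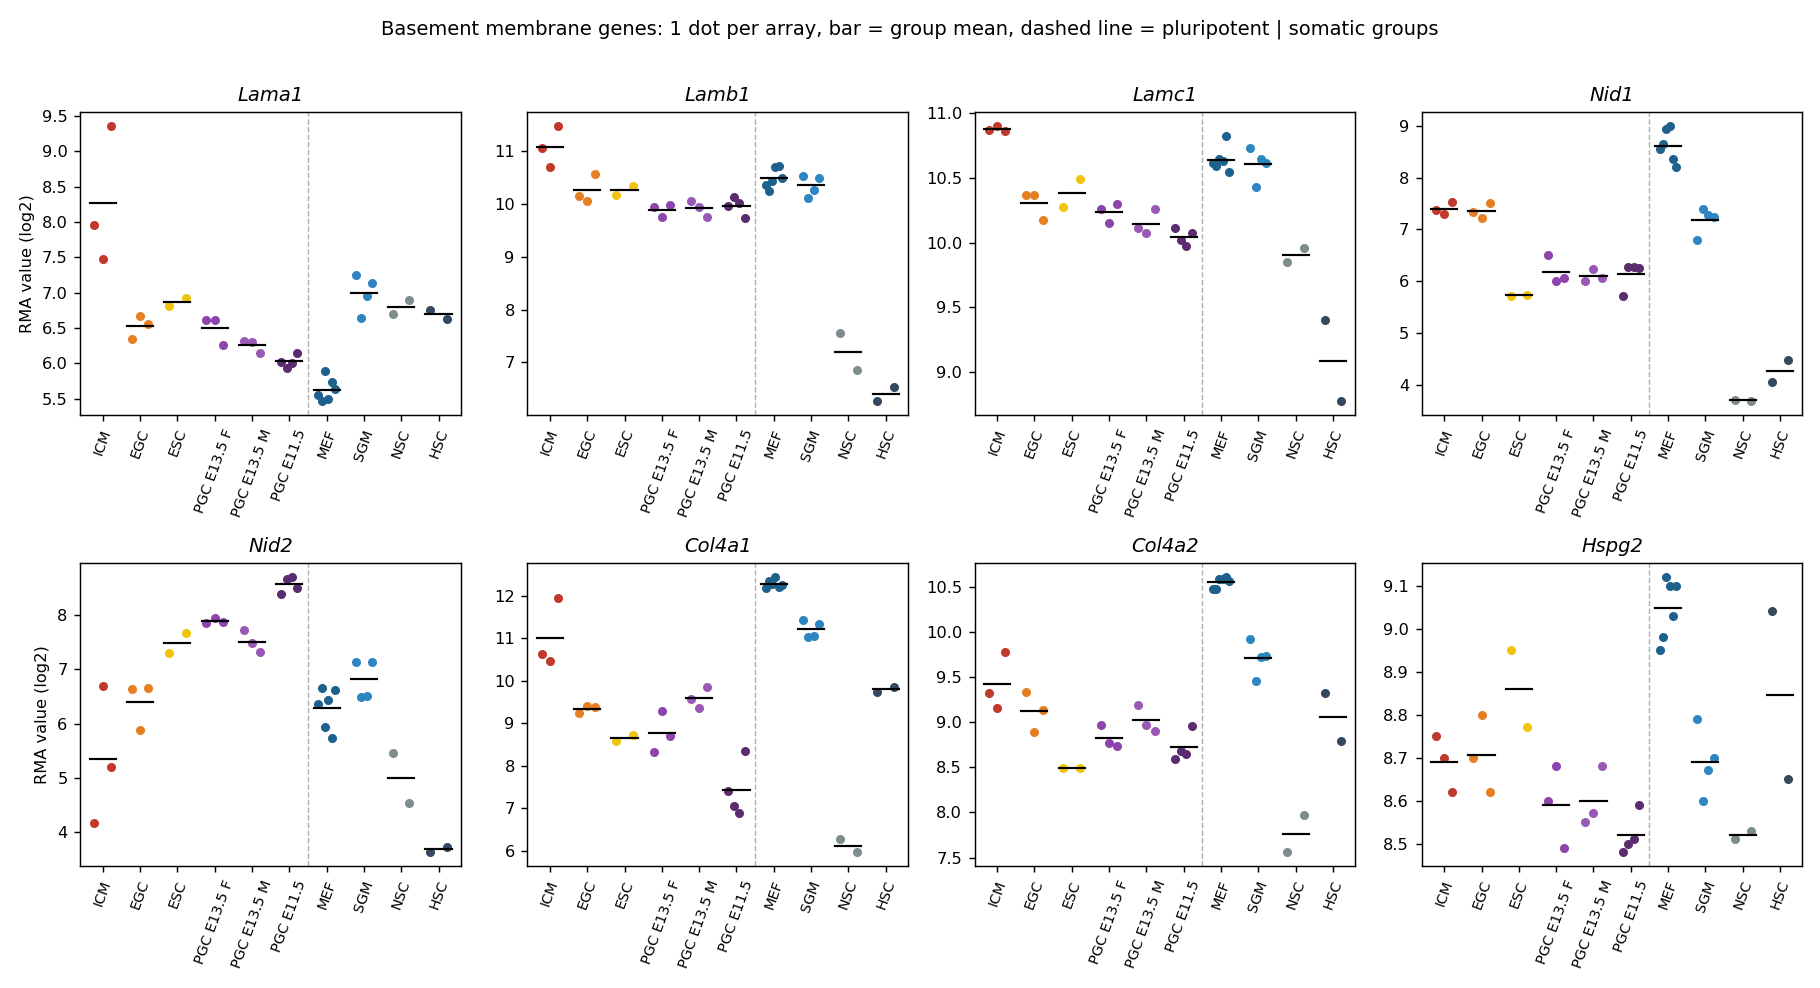
Log2 RMA value (vertical axis) of each of the 8 genes on 32 arrays, 1 dot per array and a bar at each group mean, with the pluripotent groups left of the dashed line and the somatic groups right of it. Lama1 stands highest in ICM (8.27 on average), Nid1, Col4a1 and Col4a2 in MEF, and Nid2 in PGC at E11.5, while Hspg2 is nearly flat.

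Nid1, which bridges laminin and collagen IV, split the 3 blastocyst- or germ-cell-derived pluripotent groups. It read 7.37, 7.29 and 7.53 in ICM and 7.34, 7.21 and 7.51 in EGC, against 5.71 and 5.74 in ESC. The ICM and EGC arrays intermingled, and none reached down to the ESC arrays. The difference was 1.67 ± 0.21 for ICM over ESC (3.19-fold, limma adjusted p 5.98e-07) and 1.63 ± 0.21 for EGC over ESC (3.09-fold, adjusted p 7.98e-07). ICM over EGC was 0.05 ± 0.18 and not called (adjusted p 0.849). On the ESC arrays Nid1 stood at percentile 21.11 to 21.56 of the probe sets, so the sizes of the differences over ESC are uncertain.

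Nid2, the second nidogen, went the opposite way. It read 4.17, 6.69 and 5.20 in ICM, 6.63, 5.89 and 6.66 in EGC, and 7.29 and 7.66 in ESC. The ICM arrays had the largest SD of the 8 genes (5.35 ± 1.27, n = 3), yet all 3 lay below both ESC arrays. The lowest, replicate 1, stood at percentile 5.45 of the probe sets on its array, so the size of the ICM differences is uncertain. ICM was 2.12 ± 0.41 log2 units below ESC (4.36-fold, limma adjusted p 0.000312), and the difference was -1.53 without ICM replicate 1, -2.79 without replicate 2 and -2.05 without replicate 3. With only ICM and ESC fitted it was not called (limma adjusted p 0.0857). ICM was also 1.04 below EGC (adjusted p 0.0196), with overlapping arrays, and that call was lost without ICM replicate 1 (-0.45, adjusted p 0.258) or replicate 3 (-0.96, adjusted p 0.0578). Without ICM replicate 2 it was -1.71 (adjusted p 4.03e-05). Leaving out EGC replicate 1 or EGC replicate 3 also ended it (adjusted p 0.0713 and 0.0723).

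Col4a1, a collagen IV chain that assembles with Col4a2, had the largest ICM difference upward from ESC among the 8 genes. It read 10.63, 10.46 and 11.94 in ICM, against 9.23, 9.41 and 9.39 in EGC and 8.58 and 8.73 in ESC. All ICM arrays were above all EGC and ESC arrays. The difference was 2.35 ± 0.33 over ESC (5.12-fold, limma adjusted p 4.55e-06) and 1.67 ± 0.29 over EGC (3.18-fold, adjusted p 3.61e-05). Without replicate 3 the difference over ESC was 1.89 (adjusted p 1.97e-05).

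Col4a2, its partner chain, moved less. It read 9.32, 9.16 and 9.78 in ICM and 9.34, 8.89 and 9.14 in EGC, against 8.49 on both ESC arrays. ICM and EGC arrays overlapped, and both groups were above ESC. The difference over ESC was 0.93 ± 0.17 for ICM (1.9-fold, limma adjusted p 0.000171) and 0.64 for EGC (1.55-fold, adjusted p 0.00426), and ICM over EGC was 0.29 (adjusted p 0.107). That difference was called without ICM replicate 2 (0.42, adjusted p 0.0357) or EGC replicate 1 (0.40, adjusted p 0.0497).

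Hspg2, the heparan sulphate proteoglycan perlecan, was nearly level. It read 8.75, 8.70 and 8.62 in ICM, against 8.95 and 8.77 in ESC. Its group means spanned 0.53 log2 units in all, below the lower quartile of 0.66 among all probe sets. The other 7 genes spanned 1.79 (Lamc1), 2.64 (Lama1), 2.79 (Col4a2), 4.67 (Lamb1), 4.87 (Nid2), 4.92 (Nid1) and 6.16 (Col4a1), against a median of 1.14 and an upper quartile of 2.02 over all probe sets. In all but Lama1 of these 7 the lowest group was NSC or HSC. Over the other 8 groups the spans were 0.84 (Lamc1), 1.19 (Lamb1), 2.06 (Col4a2), 2.64 (Lama1), 2.89 (Nid1), 3.20 (Nid2) and 4.86 (Col4a1), against a median of 0.83 and an upper quartile of 1.58, and Hspg2 spanned 0.52, next to a lower quartile of 0.51.

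Beside EGC, ICM was higher in 4 of the 8 genes, Lama1, Lamb1, Lamc1 and Col4a1, and lower in Nid2, where 52.1% of all probe sets differed. Beside PGC at E11.5 the count was 7 of 8, with 41.3% of all probe sets called. Col4a1 led upward at 3.59 ± 0.28 (12-fold, limma adjusted p 3.73e-11) and Nid2 led downward at -3.20 ± 0.34 (9.19-fold, adjusted p 2.06e-08), a size that was -2.61 without ICM replicate 1 and -3.87 without replicate 2. Nid2 stood at percentile 5.45 on ICM replicate 1, so its fold is uncertain. The median of the 8 genes was 0.43 over EGC and 0.98 over PGC at E11.5. These comparisons share the ICM arrays, so they are not independent of each other or of the comparison with ESC.

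Set against MEF, ICM had more of the laminin chains and less of the other basement membrane genes. Over MEF all 8 genes were called, 3 higher (the laminin chains) and 5 lower, beside 62.6% of all probe sets. Col4a1 was 1.27 lower (2.42-fold, limma adjusted p 9.2e-05), Col4a2 1.14 lower (2.2-fold, adjusted p 1.81e-08), Nid1 1.22 lower (2.33-fold, adjusted p 1.5e-07) and Hspg2 0.35 lower (1.28-fold, adjusted p 0.000209). Nid2 was 0.94 lower (adjusted p 0.0123) with overlapping arrays, at -0.34 without ICM replicate 1 (adjusted p 0.321) and -1.61 without replicate 2 (adjusted p 8.85e-06). Lists of collagen processing genes, matrix proteases and other basement membrane matrix were lower as well, in 11 of 14, 11 of 12 and 12 of 16 measured genes, with 0 higher. Of the other laminin chains, 2 of 6 were higher and 3 lower, and of matrix receptors 4 of 19 were higher and 10 lower. Beside these counts, 29.6% of all probe sets were higher and 33.0% lower in ICM than in MEF. The mesenchyme list was lower in 15 of 16, with a median difference of -4.62, and its part in these differences was not tested.

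Over SGM, 4 of the 8 genes were called in ICM, beside 58.8% of all probe sets. The 3 laminin chains were higher and Nid2 lower (-1.46, 2.75-fold, limma adjusted p 0.000666, with overlapping arrays), at -0.87 without ICM replicate 1 (adjusted p 0.0194). Col4a1 and Col4a2 had differences of -0.20 and -0.29 and were not called (adjusted p 0.558 and 0.0835). Without ICM replicate 3 both were lower in ICM, at -0.66 (adjusted p 0.0285) and -0.47 (adjusted p 0.00784), so 1 array decided whether the collagen IV chains were called between ICM and SGM. Without SGM replicate 2 Col4a2 was called as well (-0.37, adjusted p 0.0339). Nid1 had a difference of 0.22 (adjusted p 0.271).

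**Figure D3:**
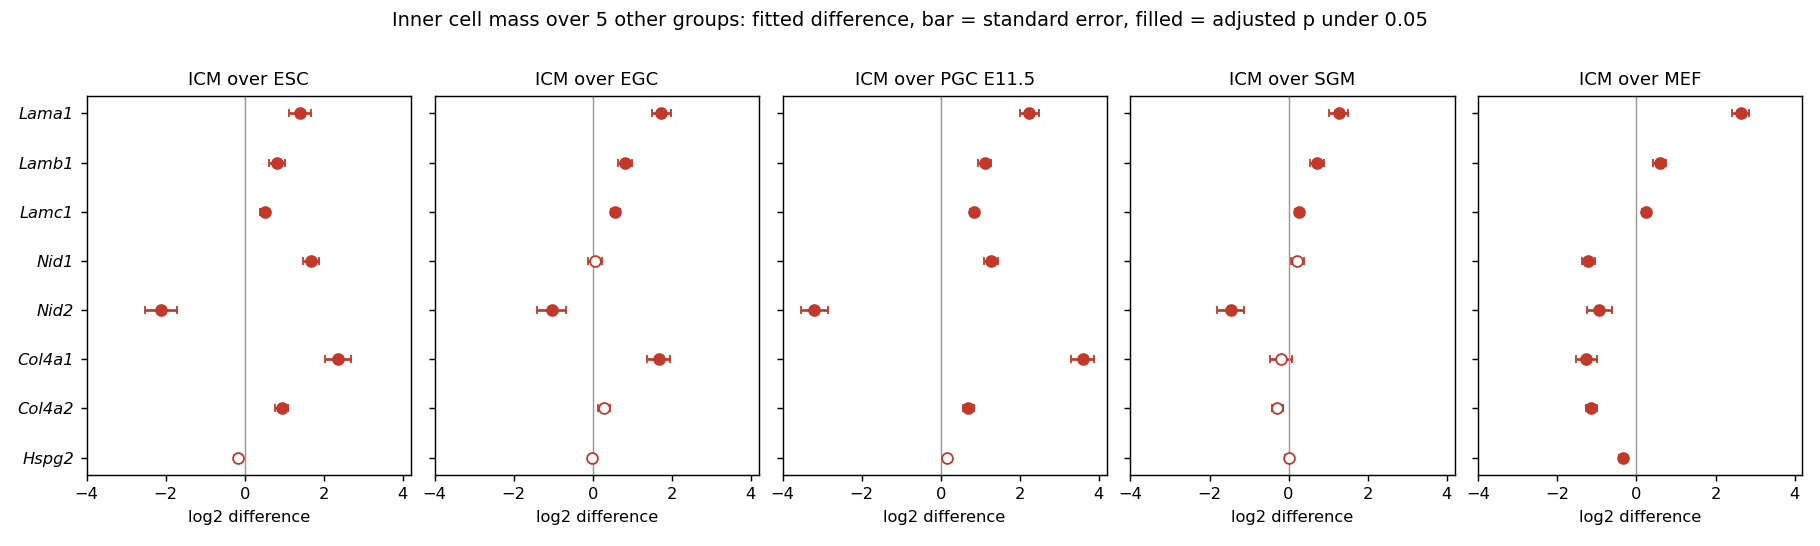
Fitted log2 difference (horizontal axis) of the 8 genes (vertical axis) between ICM and 5 other groups, 1 panel per group, with standard errors as bars and filled symbols where the adjusted p is below 0.05. The laminin chains lie right of 0 in every panel, and Col4a1 lies at 2.35 over ESC and at -1.27 over MEF.

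Germ cells at E11.5 were compared with SGM, the cells of the same tissue that lack the reporter. There 7 of the 8 genes differed, 1 higher and 6 lower in PGC, beside 44.6% of all probe sets. Nid2 was the gene that was higher. Collagen IV, all 3 laminin chains and Nid1 were lower in PGC by their brightest probe sets. The median difference of the 8 genes was -0.76 against -0.03 over all probe sets.

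Col4a1 showed the widest gap. It read 7.41, 7.06, 6.89 and 8.34 in PGC at E11.5, against 11.43, 11.03, 11.04 and 11.33 in SGM. The PGC arrays did not come near the SGM arrays, although replicate 4 lay above the other 3 PGC arrays. The difference was -3.78 ± 0.26 (13.8-fold, limma adjusted p 7.99e-13), and -4.09 without PGC replicate 4. That replicate also had the highest means of the 4 PGC arrays for the mesenchyme list (8.33, 8.06, 8.14 and 8.41 on replicates 1 to 4, against 10.50 to 10.67 in SGM), the endothelium list (6.82, 6.74, 6.79 and 6.99, against 7.42 to 7.61 in SGM) and the erythroid list (7.47, 6.96, 6.93 and 7.92, against 9.66 to 10.14 in SGM). The part of other cells in its Col4a1 value was not tested.

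Col4a2 read 8.59, 8.68, 8.65 and 8.96 in PGC at E11.5, against 9.92, 9.46, 9.72 and 9.73 in SGM, again with no overlap (-0.99, 1.98-fold, limma adjusted p 3.82e-07). Nid1 read 5.71, 6.28, 6.27 and 6.26, against 6.80, 7.39, 7.27 and 7.24 in SGM (-1.05 ± 0.16, 2.06-fold, adjusted p 3.14e-06). Lama1 read 6.02, 5.94, 6.01 and 6.15, against 7.25, 6.64, 6.95 and 7.13 in SGM (-0.96 ± 0.22, 1.95-fold, adjusted p 0.000553). Each of these genes separated the sorted fractions completely. On the PGC arrays Nid1 stood at percentile 21.5 to 31.69 of the probe sets and Lama1 at 25.31 to 28.02, so the folds of these 2 genes are uncertain. Lamc1 was 0.56 lower in PGC (1.48-fold, adjusted p 1.71e-05). Lamb1 was 0.39 lower (1.31-fold, adjusted p 0.0438) with overlapping arrays, and its call was lost without any one of 6 arrays (PGC replicates 1, 3 and 4 and SGM replicates 1, 3 and 4, adjusted p 0.0532 to 0.131). Averaging the probe sets of a gene (-0.37, adjusted p 0.0903) or centring arrays on their medians (-0.35, adjusted p 0.078) also ended the Lamb1 call. The second probe sets of Lamb1 (-0.35, limma adjusted p 0.216, overlapping arrays) and Lamc1 (0.05, adjusted p 0.77, overlapping arrays) were not called. Hspg2 was not called, except without SGM replicate 2 (-0.20, adjusted p 0.0489) among the arrays left out in turn.

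Nid2 was the exception in the germ line. It read 8.38, 8.65, 8.69 and 8.49 in PGC at E11.5, its highest level in the series, against 7.13, 6.48, 6.51 and 7.13 in SGM. The arrays did not overlap, and PGC was higher by 1.74 ± 0.32 (3.35-fold, limma adjusted p 4.05e-05). The nidogens therefore lay on opposite sides in this comparison, as they did between ICM and ESC.

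The rest of the matrix list was mostly lower in PGC than in SGM too, where 23.4% of all probe sets were lower and 21.2% higher. Of the other laminin chains, 5 of 6 were lower, led by Lama4 (-1.65), Lama2 (-1.48) and Lamb2 (-1.44). Of other basement membrane matrix genes, 11 of 16 were lower and 2 higher, led by Tgfbi (-3.67), Sparc (-2.04) and Smoc2 (-1.75). Collagen processing genes were lower in 8 of 14 and higher in 2, with the collagen chaperone Serpinh1 at -2.38. Matrix receptors were lower in 11 of 19 and higher in 2, with the laminin-binding integrin chain Itga6 at -2.06, and proteases and their inhibitors were lower in 9 of 12, led by the plasminogen activator Plat (-3.84) and Timp3 (-3.31). The lists of mesenchyme (15 of 16), erythroid (8 of 8) and endothelial genes (6 of 11) were lower in PGC as well.

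By E13.5 the collagen IV chain Col4a1 had risen in germ cells of both sexes. It read 8.33, 9.28 and 8.69 in females and 9.57, 9.36 and 9.85 in males at E13.5, against the 6.89 to 8.34 of PGC at E11.5. Female replicate 1 lay just below the highest E11.5 array, and all male arrays lay above it. The difference was 1.35 ± 0.28 for females (2.54-fold, limma adjusted p 0.000512) and 2.17 ± 0.28 for males (4.51-fold, adjusted p 1.37e-06), and 1.65 and 2.48 without E11.5 replicate 4. Endothelial genes moved as well, with 5 of 11 higher in females, beside 14.1% of all probe sets, and 9 of 11 in males, beside 30.0%. The endothelial list averaged 6.98 to 7.26 in females and 7.14 to 7.23 in males, against 6.74 to 6.99 at E11.5. In males 6 of 12 genes of the gonad and mesonephros list, 5 of 16 of the mesenchyme list and 3 of 8 of the erythroid list were higher, beside 30.0% of all probe sets. The gonad and mesonephros list averaged 7.01 to 7.08 in males, against 6.66 to 6.83 at E11.5. Their part in the Col4a1 difference was not tested.

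Few other genes were called in germ cells in the main fit. In females 1 of 8 was called, beside 27.0% of all probe sets, and in males 2 of 8, beside 47.3%. The second in males was Nid2, which read 7.72, 7.47 and 7.32 and fell 1.05 below E11.5 (2.07-fold, limma adjusted p 0.0147). Without male replicate 3 it was -0.96 and not called (adjusted p 0.0602). Among the arrays left out, Col4a2 in males was called only without E11.5 replicate 4 (0.38, adjusted p 0.0357). Array weights also called it (0.36, adjusted p 0.00525). In females Nid2 read 7.85, 7.94 and 7.87, all below the E11.5 arrays, at a difference of -0.66 that was not called (adjusted p 0.157). It was called with only these groups fitted (limma adjusted p 0.00275) and with array weights (-0.69, adjusted p 0.0212). Lama1 in females was called in the same settings (0.47, adjusted p 0.0178, and 0.55, adjusted p 0.00265). Lamc1 in females was called with array weights (0.20, adjusted p 0.0315). Between the sexes at E13.5 limma called 0 of the 8 genes, 1 of 8 had an unadjusted p under 0.05, and 6.85% of all probe sets were called. That gene was Col4a1, with a female minus male difference of -0.83 ± 0.29 (adjusted p 0.0947). It was called with array weights (-0.87, adjusted p 0.00776) and without female replicate 2 (-1.09, adjusted p 0.0363).

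Cultured lines were compared directly, EGC over ESC, both male and grown in LIF and serum but at different passages. Of the 8 genes 3 were called, beside 38.6% of all probe sets: Nid1 and Col4a2 higher, as given above, and Nid2 lower by 1.08 (2.12-fold, limma adjusted p 0.0376). The Nid2 call was lost without either ESC array or without EGC replicate 2 (adjusted p 0.072 to 0.222). Col4a1 was 0.69 ± 0.33 higher and not called (adjusted p 0.1), but was called with only these lines fitted (adjusted p 0.00104). Lama1 was -0.34 (adjusted p 0.362), and Lamb1 averaged 10.26 in both lines. The mesenchyme list averaged 8.99 to 9.08 in EGC and 8.34 to 8.51 in ESC, with 7 of 16 genes higher, beside 20.5% of all probe sets. The part of this list in the Nid1 and Col4a2 differences was not tested.

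Fibroblasts in culture carried more collagen IV and Nid1 than the somatic cells of the gonad and mesonephros. Of the 8 genes 5 were called in MEF over SGM, 4 higher and 1 lower, beside 44.3% of all probe sets. Col4a1 had a lowest, median and highest of 12.18, 12.26 and 12.44 in MEF, against the 11.03 to 11.43 of SGM, and the arrays did not overlap (1.08, 2.11-fold, limma adjusted p 0.000331). Nid1 read 8.21, 8.61 and 9.00 (lowest, median, highest) in MEF, against 6.80 to 7.39 in SGM (1.44 ± 0.15, 2.72-fold, adjusted p 2.25e-09). Col4a2 was 0.85 higher (1.8-fold, adjusted p 1.03e-06) and Hspg2 0.35 higher (1.28-fold, adjusted p 9.94e-05). Markers of other cells moved between the same groups: mesenchyme genes were higher in 13 of 16 (median 1.67), erythroid genes lower in 8 of 8 (median -2.36), gonad and mesonephros genes lower in 8 of 12, and endothelial genes lower in 6 of 11 and higher in 1. Their part in these differences was not tested.

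Lama1 went against them. It was 1.36 ± 0.20 lower in MEF than in SGM (2.57-fold, limma adjusted p 1.61e-06), and no MEF array reached the lowest SGM array. Lama1 stood at percentile 19.33 to 24.51 of the probe sets on the MEF arrays, so its fold is uncertain. The other laminin chains also split, with 2 of 6 higher (Lamb2 at 1.21 and Lama4 at 1.03) and 2 lower (Lama2 at -0.42 among them). Over all probe sets 19.9% were higher and 24.4% lower. All 14 collagen processing genes were called, 12 higher and 2 lower, led by the crosslinking enzyme Lox (5.87), the prolyl hydroxylase subunit P4ha1 (2.32) and the coat protein Sec23a (1.69). Other matrix genes were higher in 5 of 16 and lower in 7, with Fbln2 at 4.27, Sparc at 1.69 and Npnt at -1.70. The Fbln2 probe set averaged 16.26 in MEF, above the 16 log2 units that a 16-bit scanner can read, so the size of its difference is uncertain. Receptors were higher in 10 of 19 and lower in 3, with Sdc4 at 1.81, Itga6 at -1.81 and Sdc2 at 1.48. Proteases and inhibitors were higher in 7 of 12 and lower in 2, with Mmp14 at 2.81, Timp3 at 2.61 and Timp1 at 2.07.

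Averaged over groups, the pluripotent and germ cell groups differed from the somatic groups in 7 of the 8 genes, beside 60.9% of all probe sets, but the directions depended on 4 arrays. Nid1 (0.54), Lamb1 (1.61), Lamc1 (0.27) and Nid2 (1.75) were higher in the pluripotent and germ cell groups, and Col4a1 (-0.72), Col4a2 (-0.34) and Hspg2 (-0.11) were lower. Without the NSC and HSC arrays Nid1 was -1.41 (limma adjusted p 3.79e-13), Lamb1 -0.20 (adjusted p 0.0391) and Lamc1 -0.29 (adjusted p 1.9e-06), all reversed. Nid2 was then 0.64, Col4a1 -2.61, Col4a2 -1.20 and Hspg2 -0.21, and in all 2 genes were higher and 6 lower. The Hspg2 call was also lost without HSC replicate 1 alone (-0.07, adjusted p 0.159), and Lama1 was called without ICM replicate 2 (0.27, adjusted p 0.0171). Lamb1 read 7.56 and 6.85 in NSC and 6.27 and 6.53 in HSC, and Nid1 3.71 and 3.69 in NSC and 4.06 and 4.47 in HSC, the lowest levels of both genes. Col4a1 read 6.28 and 5.97 in NSC but 9.73 and 9.86 in HSC. The part of the control probe set difference in these levels was not tested.

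Set in order over the 10 groups, most neighbouring levels did not differ beyond their spread. Of 72 neighbouring pairs over the 8 genes 18 were called, beside 10.5% of neighbouring pairs over all probe sets. With NSC and HSC taken out of the order, 10 of 56 were called, beside 11.2%. Lama1 had 1 step of 9, ICM over SGM, below which SGM, ESC, NSC, HSC, EGC, female and male PGC at E13.5, PGC at E11.5 and MEF followed with no called step. Lamb1 ran ICM, MEF, SGM, ESC, EGC, PGC at E11.5, male and female PGC at E13.5, NSC and HSC, with steps after ICM, before NSC and before HSC. Lamc1 stepped after ICM and before HSC. Nid1 ran MEF, ICM, EGC, SGM, the 3 PGC groups, ESC, HSC and NSC, with steps after MEF, after SGM, after ESC and between HSC and NSC. Nid2 ran PGC at E11.5, female and male PGC at E13.5, ESC, SGM, EGC, MEF, ICM, NSC and HSC, with steps between MEF and ICM and between NSC and HSC. Nid1 stood at percentile 6.448 or lower on the NSC and HSC arrays. Nid2 stood at percentile 1.674 or lower on the HSC arrays, so these lowest steps are uncertain in size. Col4a1 ran MEF, SGM, ICM, HSC, male PGC at E13.5, EGC, female PGC at E13.5, ESC, PGC at E11.5 and NSC, with 4 steps: MEF over SGM, ICM over HSC, ESC over PGC at E11.5 and PGC at E11.5 over NSC. Col4a2 had 2 steps, MEF over SGM and ESC over NSC, and Hspg2 none.

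The genes did not share 1 pattern. Over the 10 group means, Pearson's r was 0.95 between Col4a1 and Col4a2, 0.90 between Lamb1 and Lamc1 and 0.84 between Nid1 and Col4a2. Without NSC and HSC the same pairs had 0.92, 0.93 and 0.93. Lama1 followed Lamb1 with 0.09 over 10 groups and 0.69 over 8. The nidogens had 0.34 over 10 groups and -0.74 over 8, and Lamb1 with Nid2 had 0.64 and -0.89. These values describe group means that share arrays, scaling and amplification, and carry no test.

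**Figure D4:**
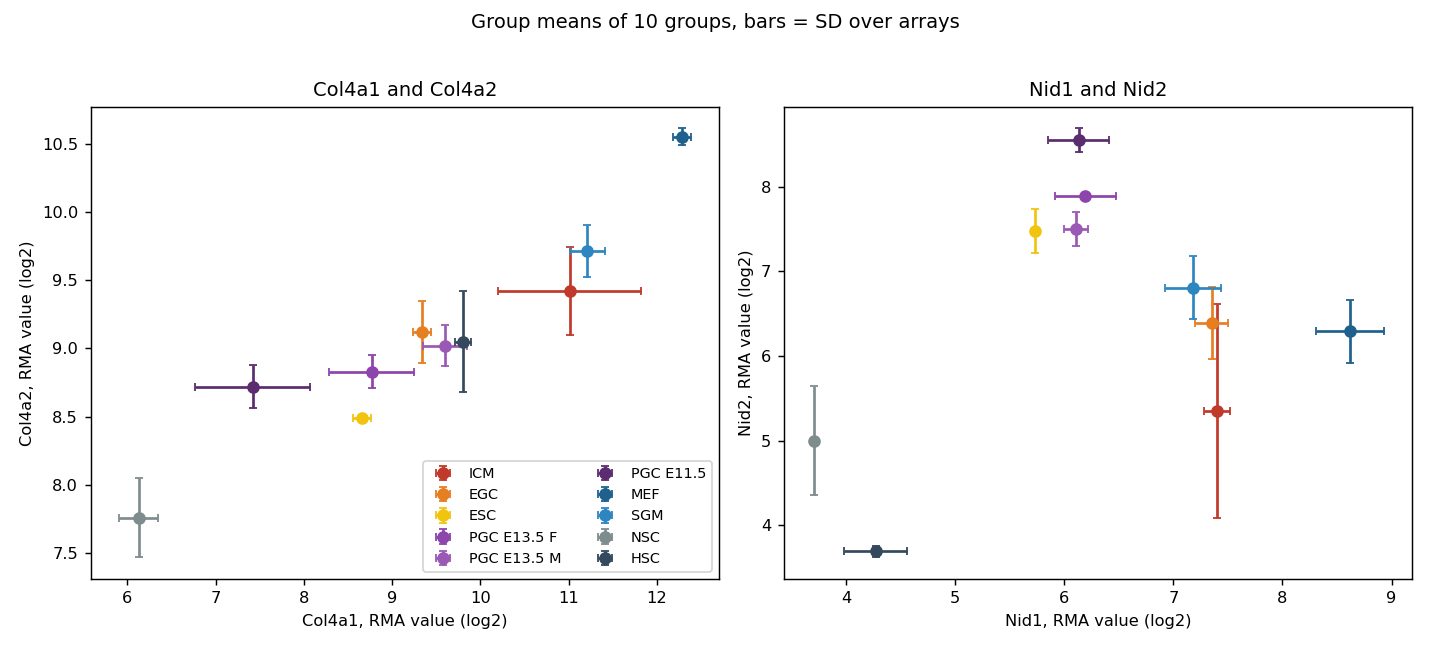
Group means in log2 units of pairs of basement membrane genes on the horizontal and vertical axes, 1 point per group with bars of 1 SD over arrays. Col4a1 and Col4a2 rise together (r = 0.95 over 10 groups), while Nid1 and Nid2 run against each other once NSC and HSC are set aside (r = -0.74 over 8).

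Likeness to other genes depended in part on NSC and HSC. Among 5001 other genes whose group means spanned at least 1 log2 unit, those with the most similar profile over the 10 groups were Plet1 (r = 0.956), Fam151a (0.914) and Prkab1 (0.910) for Lama1, and over the 8 groups without NSC and HSC these were 0.963, 0.962 and 0.964. For Lamb1 they were Nfu1 (0.961), Ssu72 (0.952) and Tpp2 (0.945), which had only 0.774, 0.630 and 0.397 over 8 groups. For Lamc1 they were Dab2 (0.925), Ptgr1 (0.919) and Golt1b (0.914), with 0.878, 0.897 and 0.729 over 8. Nid1 was most like Has2 (0.978), Efnb2 (0.951) and Ifi30 (0.951), with 0.936, 0.959 and 0.877 over 8. Nid2 was most like Recql (0.950), Lypla1 (0.937) and Tpd52l1 (0.923), with 0.914, 0.820 and 0.822 over 8. Col4a1 was most like Mroh1 (0.953), Ahnak (0.911) and Rflnb (0.911), and Col4a2 like Mroh1 (0.959), Ckap4 (0.952) and Lmna (0.934), and all of these had 0.848 or more over 8. Hspg2 was most like Pon3 (0.867), Pqlc3 (0.865) and Ahnak (0.856), with 0.835, 0.853 and 0.885 over 8. The mean profile of the 8 genes was closest to Has2 (0.970), a hyaluronan synthase, and Sparc (0.938), a collagen-binding matrix protein, followed by Serpinb6a (0.931), Mme (0.930) and Crtap (0.930), which acts in collagen prolyl hydroxylation. Over 8 groups these had 0.905, 0.899, 0.928, 0.581 and 0.863.

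Matrix genes outside the 8 were called in both directions between ICM and ESC. The share called was 37.5% of other basement membrane matrix, 28.6% of collagen processing genes, 26.3% of receptors and 25% of proteases and inhibitors, beside 27.3% of all probe sets. By direction, 11.8% of all probe sets were higher and 15.6% lower in ICM. Of the other basement membrane matrix list 2 of 16 were higher and 4 lower in ICM, with Col18a1 at -1.66, Sparc at 1.24 and Agrn at -0.86. Collagen processing genes were higher in 3 of 14 and lower in 1, with the prolyl hydroxylase subunit P4ha2 at 1.45, Serpinh1 at 0.94 and Crtap at 0.89. Receptors were higher in 3 of 19 and lower in 2, with Ilk, which links integrins to actin, at 1.12, Itga6 at 0.65 and Ddr1 at -0.53. Proteases and inhibitors were higher in 1 of 12 and lower in 2, with Cst3 at 0.98, Mmp14 at -0.64 and Bmp1 at -0.36. Trophectoderm genes were higher in 8 of 16, with Eomes at 3.60, Krt18 at 3.05 and Krt8 at 1.74, and epiblast genes were called in 2 of 15, Sox2 at -1.68 and Zfp42 at 0.97. The 3′ to 5′ gap of control probe sets is a measure of transcript shortening in amplified RNA. For Gapdh it was 3.77 to 4.17 log2 units on the ICM arrays and 2.46 to 2.84 on the ESC arrays. For actin it was 1.21 to 1.86 on ICM and 1.37 to 1.75 on ESC arrays, so actin showed no such separation from ESC. Both gaps were larger on every ICM array than on the MEF (actin 0.16 to 0.79, Gapdh 2.17 to 3.11) and SGM arrays (0.65 to 0.81 and 2.75 to 3.22). The same held for PGC at E11.5 (0.81 to 1.09 and 3.21 to 3.67). EGC was apart from ICM in Gapdh (3.07 to 3.23) but not in actin (1.72 to 1.99). The part of transcript shortening in the differences of ICM from these groups was not tested.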

How the data were processed

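Expression was measured on Affymetrix mouse arrays. Per the labels' protocols, RNeasy columns with a DNase step gave the RNA, which went through in vitro transcription in 2 rounds and took up biotin-UTP. The values are log2 intensities that the authors deposited, made by RMA per the submitters' processing notes, with no version given. Repeated amplification favours 3′ ends.

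Of 34 columns, ESC replicate 3 and PGC_E11.5 replicate 5 equalled the mean of the other replicates of their group (tolerance 1e-06) and were left out, which leaves 32 arrays. After 66 control probe sets were set aside, 12422 of 12488 remained: 10833 with 1 gene symbol, 396 with several and 1193 with none, and 10817 symbols were updated by gene ID. Array medians were 7.1662 to 7.3669. The number of arrays per group limits the precision. On MEF arrays 13 probe sets exceeded 16.

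A model with 1 mean per group (limma 3.58.1, lmFit and eBayes, under R 4.3.3, 22 residual degrees of freedom) was fitted and tested on simulated data. P-values are two-sided, except in the test of ICM above every other group, which takes the largest of 9 one-sided p-values. All are Benjamini-Hochberg adjusted over 12422 probe sets. Named genes are all 8 basement membrane genes, the 3 largest called members of each list in ICM over ESC, PGC over SGM and MEF over SGM, other laminin chains, 6 primitive endoderm genes, and the 3 genes most like each gene. Eomes, Krt18, Gata3, Hand1, Tead4 and Cdx2 by array, and Serpinh1 as an example, were picked after values were seen. The genes and lists were chosen with earlier results of these data known. Alternatives were limma variants, array scaling, probe set choice, groups fitted and arrays left out. Replicate numbers were not taken as pairs. Promoter windows came from RefSeq (GRCm38.p6).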

Additional observations from a re-analysis of the deposited data

Results flagged for a closer look

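Of 30 groups of values tested for a lone array, 2 held one, and chance marks about 1 in 20. Lamc1 was highest on MEF replicate 5, at 10.82, apart from the other 5 MEF arrays. Nid1 was lowest on PGC_E11.5 replicate 1, at 5.71, where the other 3 arrays read 6.28, 6.27 and 6.26. No explanation was tested for either value.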

How the results depend on the processing

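Of 2152 alternative values of 104 differences, 2073 kept their direction and side of the threshold, 26 gained a call, 50 lost one and 3 reversed, and 75 differences kept both throughout. Reversals came without NSC and HSC, in the pluripotent over somatic comparison (Lamb1 -0.20, Lamc1 -0.29, Nid1 -1.41), which then held 2 genes higher and 6 lower. The cause was not tested. Fitting only the compared groups leaves fewer degrees of freedom and takes the spread from those groups alone. For ICM over ESC it gave 3 higher and 0 lower (limma adjusted p 0.127 for Lama1, 0.0802 for Lamb1, 0.0828 for Lamc1 and 0.0857 for Nid2). It also gave 0 lower for ICM over EGC, 2 higher and 1 lower for female PGC over E11.5, and 2 lower for MEF over SGM. Array weights were low for ICM (0.381, 0.537 and 0.322), HSC (0.445 on both) and PGC_E11.5 replicate 4 (0.478), against 1.05 on both ESC arrays. Array weights gave 0 lower for ICM over EGC, 3 higher and 1 lower for female and 2 higher for male PGC over E11.5, 1 lower for female over male, and 1 gene, Lama1, above every other group. With the replicate number as a block, EGC over ESC had 0 lower (Nid2 -1.05, adjusted p 0.062) and Hspg2 lost its pluripotent over somatic call (-0.10, adjusted p 0.0505). No other call changed under the block. Correlations of same-numbered deviations ran from -0.534 to 0.476. Unlike-numbered arrays were not computed for reference, so these values cannot decide whether replicate numbers pair the arrays.

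Without 1 array at a time, counts were 4 to 6 higher in ICM over ESC, 0 to 1 lower in ICM over EGC, 1 to 3 lower in ICM over SGM, 1 to 2 higher and 0 to 1 lower in male PGC over E11.5, 0 to 1 lower in female over male, 0 to 1 lower in EGC over ESC, and 1 to 2 above every other group. Over all probe sets, ICM over ESC had 3392 calls and 994 with only those groups fitted, 1978 without ESC replicate 1 and 2162 without ESC replicate 2. ICM over PGC_E11.5 had 5132 and 3352 with only those groups. Array weights gave 5612 against 3354 for female over E11.5 and 1652 against 851 for female over male. Female over male had 468 without female replicate 3 and 499 without male replicate 3. EGC over ESC had 3179 without ESC replicate 2, against 4798. Features above every other group numbered 114 with the probe sets of a gene averaged and 279 without NSC and HSC, against 179. Centring arrays on their medians moved the share of calls that were higher to 55.8% from 43% in ICM over ESC, to 42.1% from 52.3% in female and to 46.2% from 63.4% in male PGC over E11.5, and to 55% from 44.8% in MEF over SGM.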
